A study of Mus musculus with 4 samples.

Results

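The genes described here are 10 that macrophages use to take up, carry, store and export lipid: Cd36, Msr1, Pla2g7, Lpl, Abca1, Abcg1, Plin2, Fabp4, Fabp5 and Pparg. They were picked by name from the 34745 genes of the deposited table, and they were chosen by their known function with earlier results of the same comparison in view. The difference between DI and vehicle is therefore described for them and is not a test. All 10 passed the filter on low counts, among 12590 genes that did, and the lowest count of any of them in any library was 370.

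RNA was measured in bone marrow derived macrophages (BMMs) of 8-week-old male C57BL/6 mice of wild type. BMMs are grown from marrow with M-CSF, and RANKL drives them towards osteoclasts, the cells that resorb bone. The cells went without FBS for 12 h and then received RANKL at 100 ng/mL for 24 h, either with dimethyl itaconate (DI), a membrane permeable derivative of the macrophage metabolite itaconate, or with vehicle, which was DMSO. The labels give the dose of DI as 20 mM and the paper's methods as 20 μM. Each group, RANKL+DI and RANKL+Veh, had 2 libraries, and no group lacked RANKL. The labels do not say whether the 2 libraries of a group came from separate mice or cultures, so p-values below measure the spread between these libraries only.

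Macrophages take up modified lipoproteins through scavenger receptors and free fatty acids that lipases release at the cell surface. Inside the cell, fatty acid binding proteins carry the fatty acids, lipid droplets store them as esters, and ABC transporters pass cholesterol out to apolipoproteins. The nuclear receptors PPARγ and LXR sense fatty acids and oxidized sterols and are known to act on many of these genes. PPARγ is also known to promote osteoclast formation.

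The libraries held between 16085692 and 19403480 counts. Levels of a gene are given as CPM, which are counts scaled by the library size times its TMM factor, and comparisons between genes are given as FPKM, which is per gene length. Among the 12590 genes, 14.8% passed edgeR's quasi-likelihood test at an adjusted p under 0.05, with 7.14% higher and 7.70% lower under DI. The libraries of the 2 groups did not overlap for 58.6% of them. Genes past that adjusted p are called below. When libraries were scaled by their size alone, the median over all tested genes went from 0.0012 to -0.10 on the log2 scale, and the split of called genes from 899 higher and 969 lower to 548 higher and 1932 lower. In RNA from whole cultures, fewer cells of a type and less RNA per cell cannot be told apart.

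The cells carried the markers of macrophages. All 8 macrophage markers examined were tested, of which 5 were higher with DI and 2, Fcgr1 and Cd14, were lower (log2 fold changes -0.60 and -0.51), and the summed level of these 8 was 28443 and 29258 CPM with DI and 23125 and 22261 CPM with vehicle. Of the markers of adipocytes, which also express Lpl, Cd36, Fabp4 and Pparg, 6 of 7 had no count in any library, Adipoq and Plin1 among them, and the seventh, Slc2a4, had 1 count in all. Endothelial cells express Cd36 and Fabp4 as well. Of 8 endothelial markers, 3 had enough counts to be tested, and the summed level of the 8 ranged from 67.9 to 70.7 CPM with DI and from 72.6 to 75.6 CPM with vehicle, with Kdr lower with DI (log2 fold change -0.92) and Tek and Cldn5 at 0 counts in every library. Of 8 osteoclast markers, 5 were lower with DI and 1 was higher among the 7 tested, and the summed level of the 8 was 221 and 205 CPM with DI and 337 and 323 CPM with vehicle. Of the markers of stromal cells and neutrophils, 3 each were tested and none was called, and no marker of B cells or of T and NK cells had enough counts to be tested. The part of the difference in osteoclast genes in the results below was not tested.

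Cd36 and Pla2g7 differed most between the groups. Cd36, a scavenger receptor for oxidized LDL that also imports long-chain fatty acids, was at 4185 and 4272 CPM in the DI libraries and at 1950 and 2012 CPM in the vehicle libraries. Both DI libraries stood far above both vehicle libraries, and the replicates of a group lay close together. The means were 4228 ± 61.8 CPM with DI and 1981 ± 43.5 CPM with vehicle (SD, n = 2 each), which is 2.13-fold, or a log2 fold change of 1.09 (standard error 0.032). Cd36 (ENSMUSG00000002944) lies on the minus strand of chromosome 5, from 17781690 to 17888801 on GRCm38. It made up 0.403% and 0.413% of all counts with DI and 0.202% and 0.208% with vehicle.

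Pla2g7 encodes the secreted platelet-activating factor acetylhydrolase, also called lipoprotein-associated phospholipase A2, which cleaves PAF and oxidized phospholipids. Its levels were 1091 and 1074 CPM with DI and 533 and 507 CPM with vehicle, again with a wide gap between the groups. The means were 1083 ± 12.5 and 520 ± 18.2 CPM (SD, n = 2 each), a 2.08-fold difference and a log2 fold change of 1.06 (standard error 0.039). Pla2g7 (ENSMUSG00000023913) lies on the plus strand of chromosome 17, from 43568098 to 43612201. The gene 1700071M16Rik overlaps 11.0% of its exon bases on the opposite strand, and this gene had between 84 and 121 counts per library, against 8445 or more for Pla2g7. No source says whether strand was used in counting. Among all tested genes, 129 had a higher log2 fold change than Cd36 and 139 had a higher one than Pla2g7.

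Promoter sequences were available from RefSeq for 5 of the 10 genes on GRCm38.p6, in 7 windows that run from 250 bases before to 50 bases after a start site. The windows of the 2 genes that differed most, and of Abca1, which was lower with DI, are shown on the strand of each gene. Capitals mark matches to the nuclear receptor hexamer AGGTCA or to the core of the antioxidant response element, TGACNNNGC, searched on both strands. The hexamer is the unit that PPAR and LXR bind as a pair, and the antioxidant response element is the site of NRF2.
Cd36, chr5:17835847-17836146, minus strand: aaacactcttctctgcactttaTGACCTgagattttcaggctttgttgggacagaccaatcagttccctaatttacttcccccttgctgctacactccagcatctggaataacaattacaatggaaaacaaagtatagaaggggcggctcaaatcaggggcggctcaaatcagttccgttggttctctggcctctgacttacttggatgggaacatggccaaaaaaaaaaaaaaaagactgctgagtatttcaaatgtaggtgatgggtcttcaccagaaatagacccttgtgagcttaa
Pla2g7, chr17:43568201-43568500, plus strand: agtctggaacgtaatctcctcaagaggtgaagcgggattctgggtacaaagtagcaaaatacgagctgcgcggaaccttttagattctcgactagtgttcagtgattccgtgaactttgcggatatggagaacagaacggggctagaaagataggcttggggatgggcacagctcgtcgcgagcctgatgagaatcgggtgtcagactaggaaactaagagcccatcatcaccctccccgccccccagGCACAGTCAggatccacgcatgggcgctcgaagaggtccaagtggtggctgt
Abca1, chr4:53159846-53160145, minus strand: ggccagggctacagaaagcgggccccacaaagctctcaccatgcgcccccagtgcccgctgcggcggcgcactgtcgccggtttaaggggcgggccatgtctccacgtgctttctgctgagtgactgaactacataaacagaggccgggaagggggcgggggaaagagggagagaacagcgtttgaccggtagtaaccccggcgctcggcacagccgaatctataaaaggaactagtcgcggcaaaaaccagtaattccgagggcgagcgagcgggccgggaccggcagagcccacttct
The Cd36 window held 1 hexamer, on the reverse strand from 228 to 223 bases before the start site, and no match to the antioxidant core. The Cd36 and Pla2g7 windows both lie inside the gene as the deposited table bounds it. The Pla2g7 window held 1 antioxidant core, also on the reverse strand, which reads GCACAGTCA in the printed direction and spans the start site, and no hexamer. The Abca1 window held no exact match to either. Among all 32851 windows, 16.3% held the hexamer and 12.4% held the antioxidant core. The hexamer repeated directly after 1 base (DR1) or 4 bases (DR4), which counts as a hexamer too, was in 0.0396% and 0.0152% of all windows and in none of the 7 windows of the members. Base composition differed between the 3 windows printed, with 43.0% G and C for Cd36, 54.0% for Pla2g7 and 62.7% for Abca1, against a median of 52.7% over all windows. A match describes letters in this window and says nothing on binding. Only these exact letters were searched, so a window without a match can still hold a site with other letters.

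**Figure D1:**
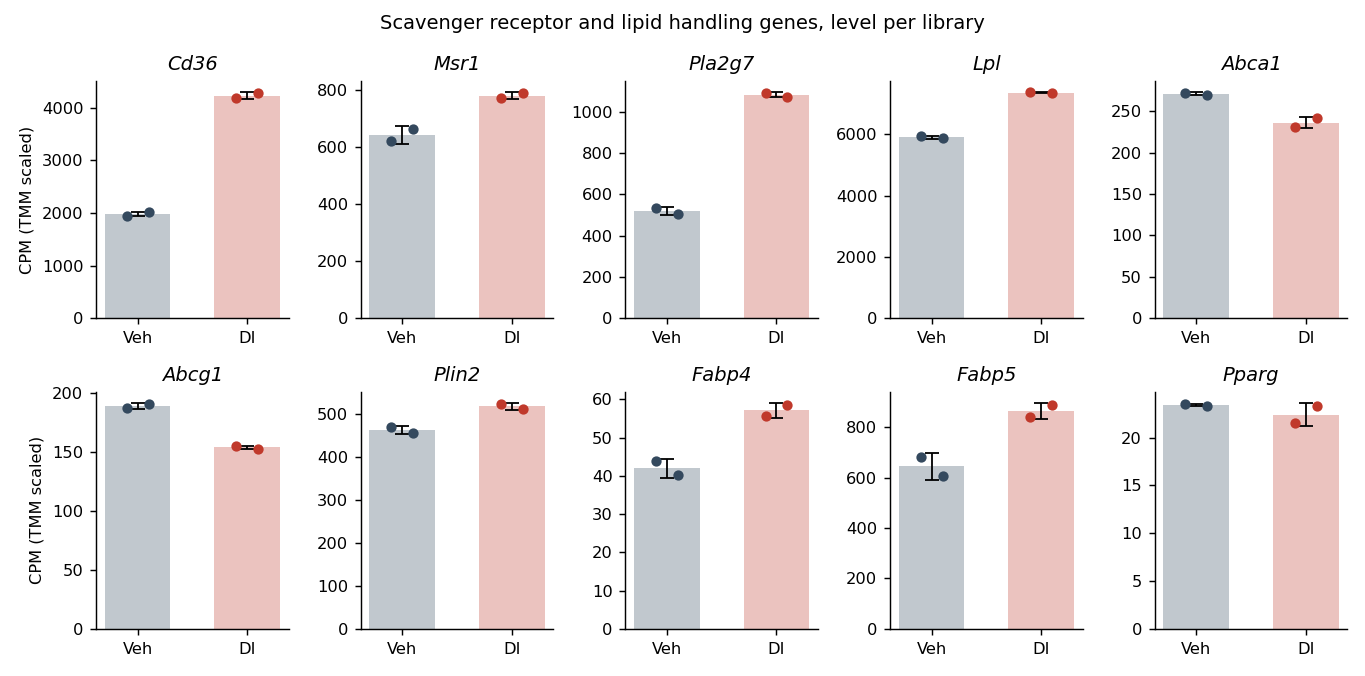
Level of each of the 10 genes in CPM (TMM scaled, each axis from 0 with its own range), with points for single libraries, bars for the means of 2 libraries and whiskers for the SD, vehicle in dark blue-grey and DI in red. Cd36 and Pla2g7 stand apart with 2.13-fold and 2.08-fold higher means with DI, while Abca1, Abcg1 and Pparg are the 3 genes whose DI bar is lower.

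Msr1, the class A scavenger receptor that binds modified LDL and bacterial surface molecules, differed far less than Cd36. It was at 771 and 788 CPM with DI and at 620 and 664 CPM with vehicle. The groups did not overlap, and the gap between them was larger than the difference between the vehicle replicates. Its log2 fold change was 0.28 (standard error 0.044), on means of 779 ± 11.8 and 642 ± 31.7 CPM (SD, n = 2 each). It was 0.18 when scaled by library size alone. Per gene length, Cd36 was at 2.60 times the FPKM of Msr1 in each DI library and at 1.51 and 1.45 times with vehicle. Msr1 (ENSMUSG00000025044) lies on chromosome 8, from 39581700 to 39642678.

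Lpl encodes lipoprotein lipase, which frees fatty acids from the triglycerides of lipoproteins, and by FPKM it was the most abundant of the 10 genes. Its levels were 7375 and 7363 CPM with DI and 5948 and 5878 CPM with vehicle. All 4 libraries fell into 2 tight pairs with DI above. The log2 fold change was 0.32 (standard error 0.027), and the means were 7369 ± 8.07 and 5913 ± 49.2 CPM (SD, n = 2 each). Lpl alone took 0.709% and 0.712% of the counts with DI, and 0.616% and 0.609% with vehicle. It lies on chromosome 8 (ENSMUSG00000015568, 68880491 to 68907448).

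The fatty acid binding proteins Fabp4 and Fabp5, which carry fatty acids through the cytosol, are neighbours on chromosome 3 (Fabp5 from 10012548 to 10016607, Fabp4 from 10204088 to 10208576). Fabp4 was at 55.7 and 58.5 CPM with DI and at 43.8 and 40.1 CPM with vehicle. Fabp5 was at 840 and 886 CPM with DI and at 681 and 607 CPM with vehicle. DI was above vehicle for both genes, but the vehicle replicates differed by 1.09-fold for Fabp4 and 1.12-fold for Fabp5, the widest replicate spreads of the 10 genes. The log2 fold changes were 0.44 (standard error 0.073) for Fabp4 and 0.42 (standard error 0.062) for Fabp5. The balance between the genes differed little between the groups, since Fabp5 stood at 18.3 and 18.4 times the FPKM of Fabp4 with DI and at 18.9 and 18.4 times with vehicle. Stretches of the Fabp5 transcript have near-identical copies in the pseudogenes Gm6166 and Gm14328 (41.4% and 41.3% of its length at 98.3% and 97.3% identity), which leaves its level more uncertain than those of the other 9.

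Plin2 encodes perilipin 2, the coat protein of lipid droplets in macrophages. It had the smallest positive difference, at 524 and 513 CPM with DI against 470 and 457 CPM with vehicle. The libraries of the groups did not overlap, although the gap was narrow. The log2 fold change was 0.16 (standard error 0.036) on means of 518 ± 7.56 and 464 ± 9.11 CPM (SD, n = 2 each), and 0.06 when scaled by library size alone. Plin2 was past the threshold used for all genes in only 4 of the 12 alternatives, and not under that scaling. Plin2 (ENSMUSG00000028494) is on chromosome 4, from 86648386 to 86670060.

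The cholesterol exporters Abca1 and Abcg1 went the other way. Abca1, which loads cholesterol and phospholipid onto lipid-free apolipoprotein A-I, was at 231 and 241 CPM with DI and at 272 and 270 CPM with vehicle. Both DI libraries lay below both vehicle libraries. The log2 fold change was -0.20 (standard error 0.041). Without DI replicate 1 it was -0.17 and no longer past the threshold used for all genes. The same held without vehicle replicate 1 (-0.19) or vehicle replicate 2 (-0.20). With the replicate number as a block, Abca1 did not pass either (adjusted p = 0.0562, edgeR). Its log2 fold change was -0.30 when scaled by library size alone. Abca1 (ENSMUSG00000015243) is on chromosome 4, from 53030787 to 53159895.

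Abcg1, which exports cholesterol to HDL, was at 155 and 153 CPM with DI and at 187 and 191 CPM with vehicle. Both DI libraries again lay below both vehicle libraries. The means were 154 ± 1.38 and 189 ± 2.51 CPM (SD, n = 2 each). The log2 fold change was -0.30 (standard error 0.040), and it was -0.40 when scaled by library size alone. In both scalings Abcg1 had the lowest log2 fold change of the 10 genes. Abcg1 (ENSMUSG00000024030) is on chromosome 17, from 31057698 to 31115777.

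Pparg, the gene of PPARγ, was the least abundant of the 10 by FPKM and the one with the smallest difference. Its levels were 21.6 and 23.3 CPM with DI and 23.5 and 23.3 CPM with vehicle. DI replicate 2 stood at nearly the same level as both vehicle libraries, and DI replicate 1 was the low one. The log2 fold change was -0.06 (standard error 0.085), without DI replicate 1 it was -0.01, and scaled by library size alone it was -0.16. Pparg (ENSMUSG00000000440) is on chromosome 6, from 115360951 to 115490399, and its counts were 370 and 436 under DI and 437 and 388 under vehicle.

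By the threshold used for all genes, 9 of the 10 members were called, 7 higher and 2 lower with DI, where the background was 14.8%. For all 10, the DI libraries lay wholly to one side of the vehicle libraries, where the background was 58.6%. Since the genes were chosen with this comparison in view, nothing is read from these shares. The median log2 fold change of the 10 was 0.30, against 0.0012 for all tested genes. Only Cd36 and Pla2g7 exceeded a log2 fold change of 1, which 2.98% of tested genes exceeded in either direction, and the other 8 stayed within 0.5.

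**Figure D2:**
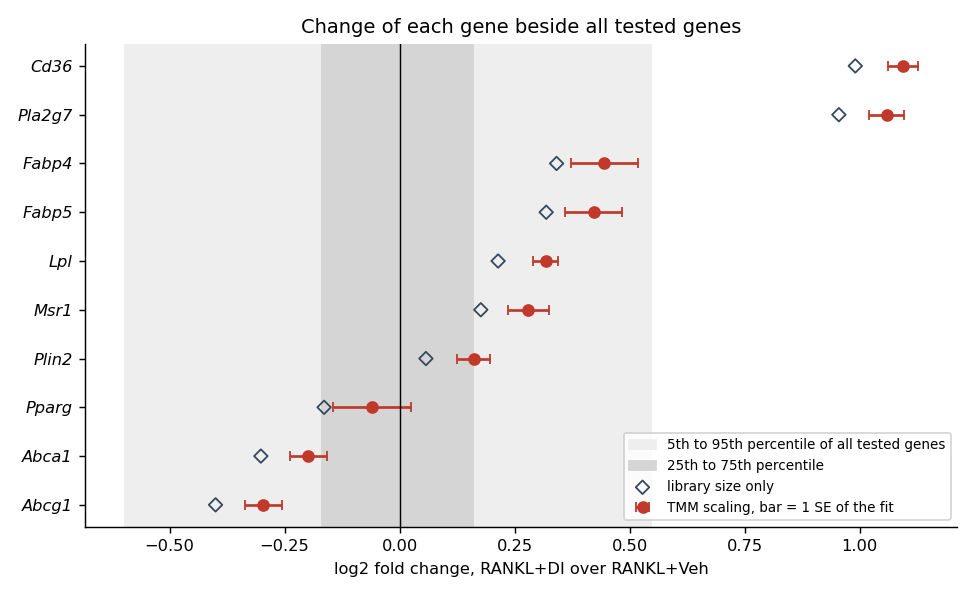
Log2 fold change of each of the 10 genes, RANKL+DI over RANKL+Veh, where filled points are from TMM-scaled counts with 1 standard error of the fit, open diamonds are scaled by library size alone, and the grey bands hold the middle of all 12590 tested genes (5th to 95th percentile, -0.60 to 0.55, and 25th to 75th, -0.17 to 0.16). Cd36 and Pla2g7 lie outside the wide band, Pparg and Plin2 lie at or within the edge of the narrow one under TMM, and every diamond lies to the left of its point.

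The order of the levels per gene length was nearly the same in both groups. With vehicle, Lpl came first at 799 ± 6.98 FPKM (SD, n = 2), followed by Cd36 at 246 ± 5.30, Msr1 at 166 ± 8.14, Fabp5 at 158 ± 12.9 and Pla2g7 at 141 ± 4.98 FPKM. The lower ranks were held by Plin2 at 91.6 ± 1.84, Abcg1 at 46.6 ± 0.601, Abca1 at 26.6 ± 0.177, Fabp4 at 8.47 ± 0.524 and Pparg at 5.84 ± 0.032 FPKM. The libraries of Msr1 and Fabp5 overlapped, so that these neighbours cannot be ordered, while every other gene was above the next in both libraries. With DI, Pla2g7 took place 3, at 273 ± 2.25 FPKM, and Fabp5 and Msr1 followed at 197 ± 8.08 and 188 ± 3.46 FPKM. No neighbours overlapped, but the lower Fabp5 library was at 191.2 FPKM and the higher Msr1 library at 190.4 FPKM. The order of Fabp5 and Msr1 is thus not settled with DI either. Among all tested genes, Lpl ranked 41 by its FPKM with vehicle and 39 with DI. Cd36 ranked 129 with vehicle and 61 with DI, and Pla2g7 ranked 235 and 112.

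**Figure D3:**
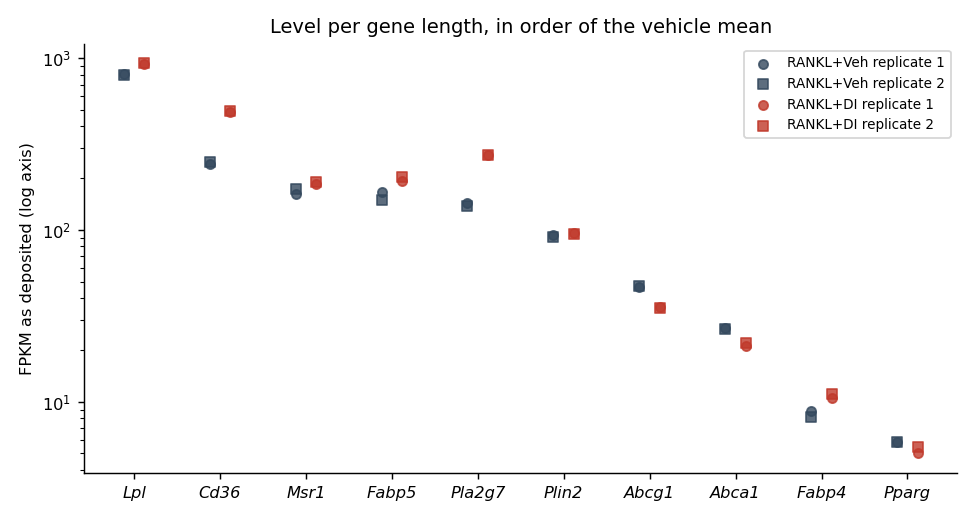
FPKM of the 10 genes in each library on a log axis, in the order of the vehicle mean, with vehicle in dark blue-grey and DI in red. The genes run from Lpl at 799 FPKM to Pparg at 5.84 FPKM with vehicle, and Pla2g7 moves from place 5 to place 3 with DI.

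The rest of lipid handling was described with 10 lists of 182 genes in all, written from general knowledge, with earlier results of these data known, and without the 10 members. Of the 147 that were tested, 31 were higher and 5 lower with DI at an adjusted p under 0.05 (edgeR), which is 24.5%, against 14.8% of all tested genes (7.14% higher and 7.70% lower). The median log2 fold change was 0.08. When scaled by library size alone, 23 were higher and 13 lower, and 19.7% of all tested genes were called. The list medians of cholesterol efflux, PPAR partners, lipid droplets, phospholipid turnover, sterol synthesis and fatty acid oxidation went from above to below 0. The median over all tested genes was -0.10 under this scaling. A gene can stand in more than 1 list.

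Among other scavenger receptors and their relatives, 7 of 14 tested genes were higher and 1 was lower (6 and 2 when scaled by library size alone), with a median log2 fold change of 0.26. With TMM scaling 57.1% were called, against 14.8% of all tested genes. Cd5l, a secreted protein of macrophages with scavenger receptor cysteine-rich domains, rose from 9.61 and 9.49 CPM with vehicle to 24.7 and 28.9 CPM with DI. This was the largest increase of these lists, with 1.49 on the log2 scale (standard error 0.11, adjusted p = 0.00140, edgeR). Marco, a class A receptor like Msr1, rose from 41.4 ± 0.656 to 66.3 ± 6.38 CPM (SD, n = 2 each; log2 fold change 0.68, adjusted p = 0.00536, edgeR). Scarb1, the HDL receptor of the same class as Cd36, rose by 0.35 on the log2 scale (adjusted p = 0.00807, edgeR), and Mertk, a receptor for apoptotic cells, by 0.43 (adjusted p = 0.0118, edgeR). Cxcl16, which also serves as a receptor for oxidized LDL, fell from 152 ± 2.79 to 124 ± 1.63 CPM (SD, n = 2 each), which is a log2 difference of -0.30 (adjusted p = 0.00879, edgeR). Its exons overlap Zmynd15 on the opposite strand over 18.3% of their length. Olr1, the LOX-1 receptor, had 5 or 6 counts per library and was not tested.

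Of the 12 lipoprotein receptors and adaptors, all tested, 5 were higher and none was lower, and 3 were higher and 2 lower when scaled by library size alone. Sort1, which encodes the sorting receptor sortilin, rose from 47.6 ± 1.97 to 84.7 ± 3.20 CPM (SD, n = 2 each), which is a log2 difference of 0.83 (adjusted p = 0.00150, edgeR). Sorl1 rose by 0.64 (adjusted p = 0.0150, edgeR). The median log2 fold change of the list was 0.23, and 41.7% of it was called, against 14.8% of all tested genes.

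The list of cholesterol efflux and LXR genes was split, with 4 higher, 2 lower and 13 that did not pass among 19 (3 higher and 2 lower when scaled by library size alone), and a median log2 fold change of 0.06. With TMM scaling 31.6% were called, against 14.8% of all tested genes. Nr1h3, the gene of LXRα, which is known to drive Abca1 and Abcg1, fell from 20.4 and 22.9 CPM with vehicle to 15.1 and 14.0 CPM with DI (log2 fold change -0.57, standard error 0.11, adjusted p = 0.0191, edgeR). Nr1h2, the gene of LXRβ, was at 63.9 ± 3.69 CPM with DI and 64.7 ± 2.31 CPM with vehicle (SD, n = 2 each) and did not pass. Pltp, the phospholipid transfer protein, fell from 171 ± 3.46 to 114 ± 1.67 CPM (log2 fold change -0.58, adjusted p = 0.00125, edgeR). However, 19.3% of its exon bases overlap Ctsa on the opposite strand, which had 14170 to 16419 counts per library, so its counts are uncertain. In the other direction, Mylip, a ubiquitin ligase and LXR target, rose by 0.59 (adjusted p = 0.00298, edgeR) and Smpdl3a, a phosphodiesterase, by 0.43 (adjusted p = 0.00186, edgeR). Apoe, the apolipoprotein that macrophages secrete, was at 1096 and 1032 CPM with DI and at 933 and 759 CPM with vehicle. The vehicle libraries differed for Apoe by more than those with DI, and its log2 fold change of 0.33 (standard error 0.095) had an adjusted p of 0.0729 (edgeR).

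Of 15 tested PPAR partners and targets, 3 were higher and none was lower, which is 20% against 14.8% of all tested genes. Ppard, the gene of PPARδ, rose from 17.4 and 17.1 CPM with vehicle to 32.6 and 34.3 CPM with DI, with no overlap (log2 fold change 0.95, standard error 0.079, adjusted p = 0.00180, edgeR). Rxra, whose product is the partner of PPAR and LXR on DNA, rose from 64.1 ± 0.349 to 88.6 ± 1.08 CPM (SD, n = 2 each), which is a log2 difference of 0.47 (adjusted p = 0.00420, edgeR). Cpt1a, the gate of mitochondrial fatty acid oxidation, rose by 0.33 (adjusted p = 0.00597, edgeR). Angptl4, a PPAR target that inhibits lipoprotein lipase, had 17 and 21 counts in the DI libraries, 26 and 36 in the vehicle libraries, and did not pass. The authors' annotation assigns 81 genes to the KEGG pathway PPAR signaling, 5 of them members (Cd36, Lpl, Fabp4, Fabp5 and Pparg). Of the other 76, 39 were tested, with a median log2 fold change of 0.05. Of these 39, 9 were higher and 3 lower, which is 30.8% (7 and 5 when scaled by library size alone). Beside the genes above, these included Fabp7, a further fatty acid binding protein, at 17.8 and 17.3 CPM with DI against 9.23 and 6.54 CPM with vehicle (log2 fold change 1.15, adjusted p = 0.00943, edgeR), and Me1, an NADPH-producing enzyme, at 0.76 (adjusted p = 0.00179, edgeR). The level of Me1 is uncertain, since parts of its transcript have near-identical copies in Gm7049 and Gm48795. Slc27a1, a fatty acid transporter, fell by 0.16 on the log2 scale (adjusted p = 0.0418, edgeR).

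Genes of lipases and lysosomal lipid breakdown rose where they were called. Lipa, the lysosomal acid lipase that hydrolyses the cholesteryl esters of engulfed lipoproteins, rose from 2357 and 2415 CPM with vehicle to 3705 and 3644 CPM with DI. The 2 groups were far apart, by 0.62 on the log2 scale (standard error 0.031, adjusted p = 4.69e-04, edgeR). Psap, the precursor of the saposins that assist sphingolipid breakdown, rose from 6670 ± 3.53 to 9352 ± 69.2 CPM (SD, n = 2 each; log2 fold change 0.49, adjusted p = 5.62e-04, edgeR). Sel1l, which is needed for lipoprotein lipase to leave the endoplasmic reticulum, rose by 0.52 (adjusted p = 0.00322, edgeR). In all, 4 of 11 tested genes of this list were higher and none was lower, which is 36.4% against 14.8% of all tested genes. The median log2 fold change was 0.22. When scaled by library size alone, 3 were higher and none was lower, and the median was 0.11. Gpihbp1, the endothelial anchor of lipoprotein lipase, had no count in any library.

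Of 18 tested genes of lipid droplets and triglyceride turnover 3 were higher, which is 16.7% and close to the 14.8% of all tested genes. These were Soat1, which esterifies cholesterol for storage, at 530 ± 2.21 against 417 ± 0.872 CPM (SD, n = 2 each; log2 fold change 0.35, adjusted p = 0.00283, edgeR), the lipase cofactor Abhd5 at 0.34 (adjusted p = 0.0112, edgeR) and Plin3, a perilipin, at 0.31 (adjusted p = 0.0153, edgeR). Plin1 had no count in any library. Of 11 genes of fatty acid uptake and activation, 2 were higher, Fabp7 and Dbi, and 1 was lower, Slc27a1, which is 27.3%. Scaled by library size alone, the split turned to 1 higher and 3 lower. Dbi, an acyl-CoA binding protein, rose by 0.27 (adjusted p = 0.0190, edgeR).

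Of 13 genes of PAF and phospholipid turnover, the setting in which Pla2g7 acts, 2 were higher and 1 was lower (2 and 2 when scaled by library size alone). With TMM scaling 23.1% were called, against 14.8% of all tested genes. Pla2g4a, the cytosolic phospholipase A2, rose by 0.34 (adjusted p = 0.0171, edgeR) and Gde1, whose exons Gm45236 overlaps on the opposite strand over 13.5% of their length, by 0.31 (adjusted p = 0.0156, edgeR), while Lpcat1, a lysophospholipid acyltransferase, fell from 57.9 ± 1.17 to 46.9 ± 1.79 CPM (SD, n = 2 each; adjusted p = 0.0301, edgeR). Ptafr, the PAF receptor, was at 218 and 214 CPM with DI and at 232 and 242 CPM with vehicle and did not pass. Of 25 genes of sterol synthesis, 2 were higher and none was lower, which is 8% and below the 14.8% of all tested genes. Among them was Insig2, a regulator of SREBP processing, at 0.44 (adjusted p = 0.0344, edgeR). When scaled by library size alone, none of the 25 was called higher and 2 were called lower. Of 19 genes of fatty acid oxidation, Cpt1a was higher and the others did not pass, which is 5.26% and below the background of 14.8%.

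Among the KEGG ABC transporters, which include Abca1 and Abcg1, 6 of 30 other tested genes were higher and 1, Abcg3, was lower, against 4 higher and 2 lower when scaled by library size alone. With TMM scaling 23.3% of the 30 were called, against 14.8% of all tested genes. Of 35 tested genes of KEGG fatty acid degradation, 4 were higher, Cpt1a, Acox3, Aldh2 and Adh7, with none lower. That is 11.4%, below the 14.8% of all tested genes, and 4 were higher and 3 lower when scaled by library size alone. Adh7 was called in 7 of the 11 alternatives that tested it. Of 44 tested genes of KEGG fatty acid metabolism, 3 were higher and 1 was lower, which is 9.09% and also below that background. When scaled by library size alone, 2 of the 44 were higher and 5 lower. Abcg3, Acox3, Aldh2 and Adh7 lie outside the rule for named genes and were singled out after their values were seen.

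**Figure D4:**
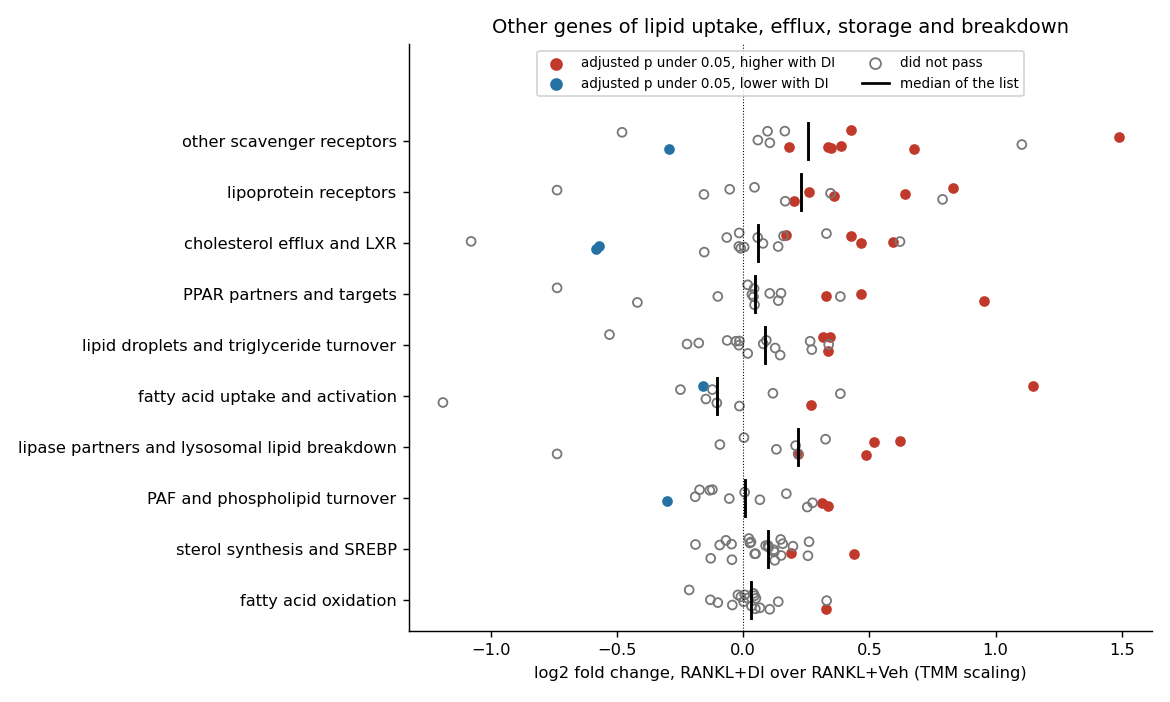
Log2 fold change of every tested gene of 10 lists of lipid handling, without the 10 members, on TMM-scaled counts, where filled points passed an adjusted p of 0.05 (red higher, blue lower with DI), open points did not, and the black bar is the median of the list. Scavenger receptors have the highest median, at 0.26, fatty acid uptake and activation the only one below 0 under this scaling, at -0.10, and Cd5l lies furthest to the right at 1.49.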

How the data were processed

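Messenger RNA libraries of BMMs, 2 RANKL+DI and 2 RANKL+Veh, were read from both ends of the fragments. Per gene and library, the authors deposited unnormalized read counts. The authors also deposited FPKM, which is scaled by gene length and library total and was used to compare levels between genes. A second deposited table repeats these values and adds the KEGG pathways, in which no pathway named cholesterol metabolism was found. The builds in the submitters' processing notes are GRCm38 and mm10. The aligner, the counting program and their versions are not given in the sources used here. Of the 10 members, 8 had the same start and end as in GENCODE M21 (GRCm38), and coordinates are those of the deposited table.

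Samples were grouped by their labels. The counts went into edgeR 4.0.16 under R 4.3.3, with its default low-count filter and TMM factors of 0.963 to 1.04. The quasi-likelihood model held only the group, p-values were adjusted by Benjamini-Hochberg over 12590 genes, and genes were called at an adjusted p under 0.05. Each standard error is the size of the log2 fold change over the square root of F. The depth of 16085692 to 19403480 counts puts a floor of 3 counts at 0.160 to 0.180 CPM, which covers counting error only. Replicates of a group differed by more than sampling noise (chi-square per degree of freedom 8.06 and 8.23) and were used as 2 samples. The steps were run on simulated data with larger differences than those of most members. Smaller differences were not simulated.

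The members and lists were chosen with earlier results of these data known. All members are named, and from each list the called genes with the 3 highest and 3 lowest log2 fold changes, together with a fixed set of partners of the members; a few genes that this rule names are not reported here. A repeated or older symbol was settled by its GENCODE identifier. Copies (at least 95% identity over 20% of a transcript) and overlapping exons were searched in GENCODE M21. Alternatives were DESeq2 1.42.0 size factors, library size only, no filter, at least 10 counts in every library, the DESeq2 Wald test, log2(FPKM + 1) and log2(FPKM + 0.01) with limma 3.58.1, the replicate number as a block, and each library left out.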

Additional observations from a re-analysis of the deposited data

How the results depend on the processing

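No value of a member changed its sign under the 12 alternatives. Of 120 such values, 88 moved by less than the spread between replicates and 32 by more, chiefly with library size only and the 2 FPKM fits. The median log2 fold change of the members was 0.30, and it was 0.20 with library size only, 0.20 with log2(FPKM + 1) and 0.20 with log2(FPKM + 0.01). It ranged from 0.28 to 0.32 when 1 library was left out. Plin2, at 0.06, was no longer called with library size only, and Msr1 and Plin2 were not called in the 2 FPKM fits. When a library was left out, Abca1 was no longer called in most fits, and Plin2 was not called in any of them. Neither Abca1 nor Plin2 was called with the replicate block.

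Over all genes, 1868 were called, and between 1087 and 1394 when 1 library was left out (1120 without RANKL+Veh replicate 1, 1087 without RANKL+Veh replicate 2), where fewer samples remain and the lone one is assumed to vary like the other group. The genes of the lipid lists called went from 36 to between 26 and 31. Deviations of libraries with the same replicate number had a correlation of -0.063, so the numbers are not shown to pair the libraries. With the replicate block, 1389 genes, 32 genes of the lipid lists and 7 of the 10 members were called.

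Of the 30 named list genes that were called, 19 were called in all 12 alternatives and none changed its sign. Among the others, Slc27a1 and Dbi were called in 6, Lpcat1 and Insig2 in 7, Sorl1 and Pla2g4a in 8, Nr1h3 in 10, and Gde1, Plin3 and Scarb1 in 11. What size of difference 2 libraries a group could show for low genes such as Angptl4, with 17 to 36 counts, was not tested.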
